A study of Mus musculus with 6 samples.

Results

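The genes described here are 10 components of signalling through STAT3 in C8-D1A cells, a mouse line cloned from astrocytes. They are Stat3, the receptor gene Il6ra, the kinase genes Jak1 and Jak2, the feedback inhibitor genes Socs1, Socs2, Socs3 and Cish, the target kinase gene Pim1, and Bcl3. They were chosen by name, and every probe whose transcript maps to one of these symbols was used, which gave 14 of the 56605 probes on the array. Each of Stat3, Il6ra, Jak2 and Socs2 had 2 probes and the other 6 genes had 1 each.

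RNA of cells treated with pulsed radiofrequency (PRF), an electrical stimulation in short high-frequency bursts that is used against neuropathic pain, was compared with RNA of untreated cells on 3 one-colour Agilent arrays per group. Both groups came from the same cloned line and had been moved from serum-containing to serum-free medium a day before use, per the labels' protocols. The labels speak of 3 independent experiments, and neither the stimulation settings nor the interval before RNA was taken are stated in what was used here. The values describe a cloned line in a dish, away from the tissue that surrounds astrocytes in the animal.

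Cytokines of the interleukin-6 family bind receptors such as the one encoded by Il6ra, which then pair with the shared subunit gp130. Kinases of the JAK family bound to the receptor phosphorylate STAT3, which dimerizes, enters the nucleus and switches on target genes. SOCS proteins and CIS (encoded by Cish) are feedback inhibitors of JAK and STAT signalling that bind receptors or kinases. SOCS3 is among the STAT3 targets, while CIS restrains STAT5 and SOCS2 is best known for growth hormone signalling. PIM1, a survival kinase, and BCL3, an IkB-like cofactor of NF-kB, are known as further targets. In astrocytes STAT3 is known for its part in reactive gliosis.

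The share of probes that passed the scanner's test for signal well above background was 59.5% to 61.2% in control and 62.1% to 63.9% in PRF cells. Of 12 astrocyte markers 10 were well above background on all 6 arrays, and Gja1 and Slc1a3 on none. Microglial markers passed on all 6 arrays for 4 of 9 genes, while Aif1, Cx3cr1, P2ry12, Adgre1 and Ptprc passed on none. The summed signal of the microglial list, relative to each array's 75th percentile, was 13.0 to 14.1 in control and 18.7 to 23.6 in PRF cells. Of these 9 genes 1 was called higher after PRF (limma, adjusted p below 0.05) and 0 lower, so the sum does not stand for the whole list. Oligodendrocyte markers passed for 7 of 7 genes, with summed signals of 166 to 171 and 149 to 163, and 1 was called higher and 2 lower. Astrocyte markers summed to 208 to 221 and 224 to 229, neuronal ones (4 of 8 genes on all arrays) to 23.4 to 26.4 and 24.4 to 28.8, and fibroblast or pericyte ones (3 of 6) to 2.76 to 3.04 and 2.44 to 2.82. In the astrocyte and neuronal lists 1 gene each was called higher and 0 lower. In the fibroblast or pericyte list 2 were called higher and 1 lower, although the sum was not higher. These sums do not stand for whole lists either. Endothelial markers (1 of 5) summed to 0.143 to 0.149 and 0.180 to 0.213, with Cdh5 and Cldn5 on no array. Of these 5 genes 1 was called higher and 0 lower. The part of any of these in the results below was not tested.

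All 14 probes were well above background on all 6 arrays, and none of their spots was saturated or flagged as an outlier. Levels are log2 signals relative to the 75th percentile of each array, so that a level of 0 equals that percentile. Each probe's level is compared only with its own level on other arrays, since probes differ in binding.

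After PRF, Socs2 rose at both probes, Socs3 at its only probe, Il6ra and Stat3 at 1 of 2 probes each, and Socs1 fell. Jak1, Jak2, Pim1 and Bcl3 differed by less than the spread between arrays, and Cish was lower without passing the test. In RNA of whole cultures, fewer cells with a transcript and less of it per cell cannot be told apart. Of the 14 probes 5 passed the adjusted threshold upward and 1 downward (limma, adjusted p below 0.05). Among all 34838 tested probes 18.4% passed upward and 12.7% downward, 31.1% in all, against 42.9% of these 14. The groups did not overlap at 9 of the 14 probes, and at 50.2% of all tested probes. The PRF arrays lay wholly above the control arrays at 7 of the 14 probes (27.7% of all tested probes) and wholly below at 2 (22.5%). With shares this near the array-wide ones, the counts are not read as a result about these genes. The median log2 change of the 14 probes was 0.11, against 0.02 over all tested probes. Counts of called probes fell from 10833 to 7220 without PRF replicate 2.

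**Figure D1:**
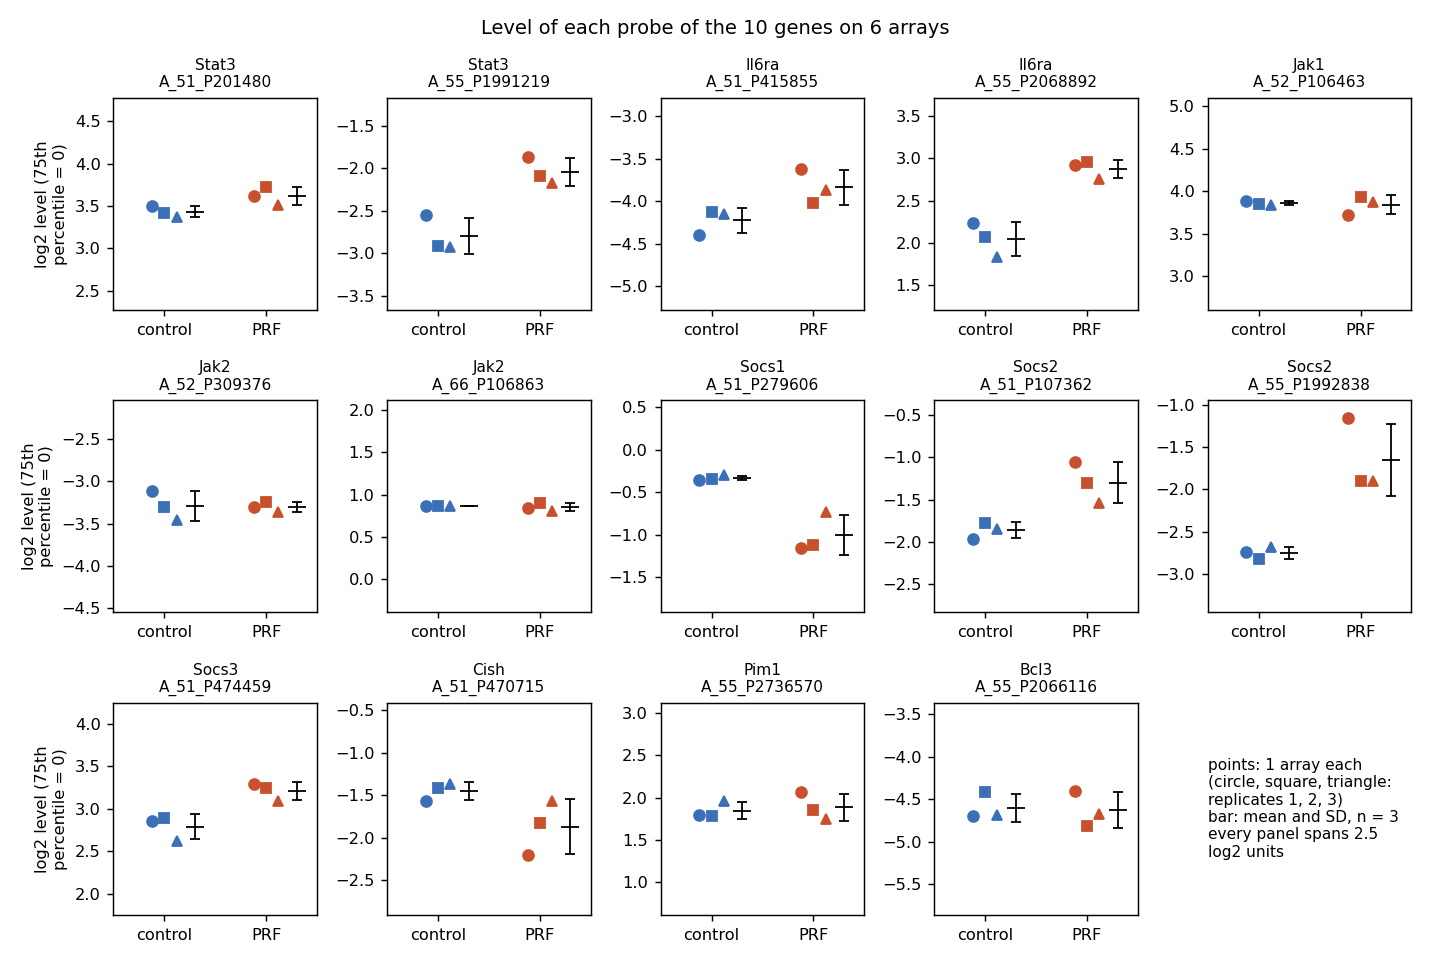
Log2 level (75th percentile of an array = 0) of each of the 14 probes on the 3 control arrays (blue) and the 3 PRF arrays (red), with the mean and SD beside the points. Groups are separated for Il6ra, Socs2, Socs3, Stat3, Socs1 and Cish, and overlap for Jak1, Jak2, Pim1 and Bcl3.

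The receptor gene Il6ra had the lowest adjusted p of the group. At probe A_55_P2068892 its log2 level was 2.23, 2.07 and 1.84 in control cells and 2.92, 2.95 and 2.75 in PRF cells. Every PRF array was above every control array. The means were 2.05 ± 0.20 and 2.87 ± 0.11 (SD, n = 3), a 1.77-fold rise (log2 change 0.83, SE 0.12, limma adjusted p = 0.00364). It passed in 16 of 18 alternative analyses, all but the fits within 1 row of the slide. Row 1 held control replicates 1 and 3 and PRF replicate 2, row 2 the other arrays, and in these rows the log2 change was 0.91 and 0.77 (adjusted p = 0.098 and 0.152). The other probe, A_51_P415855, had log2 levels of -4.40, -4.13 and -4.15 in control and -3.62, -4.02 and -3.87 in PRF cells. These groups did not overlap either, but the log2 change of 0.39 (SE 0.13) did not pass (adjusted p = 0.0619). That probe's raw signals were 32.0 to 51.6 units, and with quantile normalization its log2 change was 0.05.

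The gp130 subunit gene Il6st, through which the receptor signals, had mean log2 levels of 1.94 ± 0.08 and 1.91 ± 0.08 (SD, n = 3, limma adjusted p = 0.773).

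The JAK kinase genes changed by no more than 0.02 on the log2 scale under the main scaling. Jak1, which most gp130 receptors use, had log2 levels of 3.88, 3.85 and 3.84 in control and 3.72, 3.93 and 3.87 in PRF cells. Its log2 change of -0.02 had a 95% interval from -0.20 to 0.16 (limma adjusted p = 0.871). Jak2, the kinase also used by growth hormone and erythropoietin receptors, had log2 levels at probe A_66_P106863 of 0.87 in each control and 0.84, 0.90 and 0.81 after PRF. Its interval ran from -0.16 to 0.13 there and from -0.26 to 0.23 at probe A_52_P309376, whose log2 levels overlapped as well. With spike-in scaling the changes of these 3 probes were -0.22, -0.21 and -0.21, and none passed. With quantile normalization that of Jak2 probe A_52_P309376 was -0.27 and did not pass either.

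Stat3, the transcription factor itself, gave different answers at its 2 probes. Probe A_51_P201480 had log2 levels of 3.50, 3.42 and 3.37 in control and 3.62, 3.72 and 3.51 in PRF cells, so that the highest control and the lowest PRF array almost met. The log2 change was 0.19 (SE 0.08) and did not pass (limma adjusted p = 0.124), and it was -0.01 with spike-in scaling. Probe A_55_P1991219, which the array assigns to another RefSeq transcript of the gene, had log2 levels of -2.55, -2.91 and -2.93 in control and -1.86, -2.09 and -2.17 in PRF cells. These groups were well apart, and the rise was 1.69-fold (log2 change 0.76, SE 0.13, adjusted p = 0.008). It passed in 16 of 18 alternatives, with a log2 change of 0.50 under normexp, and missed within slide row 1 and row 2, with log2 changes of 0.65 and 0.89 (adjusted p = 0.163 and 0.162).

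The gap between the Stat3 probes can be read within each array, where the scaling cancels. Probe A_55_P1991219 minus the other was -6.05, -6.32 and -6.30 log2 units in control and -5.48, -5.81 and -5.68 in PRF cells. The gap therefore narrowed by 0.57 log2 units, and the groups did not overlap (2-sided exact permutation test, p = 0.1, the smallest that 3 against 3 arrays can give). With normexp background correction it narrowed by 0.31, and within slide rows 1 and 2 by 0.36 and 0.74. Raw signals at that probe were 78.3 to 175 units, against 6160 to 7810 at the other, so it is the one more exposed to background. Which transcripts of Stat3 each probe detects was not tested.

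The 4 inhibitors did not move together. Socs1, whose product binds JAK kinases directly, had log2 levels of -0.35, -0.34 and -0.30 in control and -1.16, -1.12 and -0.73 in PRF cells. The control arrays lay close together, and all PRF arrays were lower. The fall was 1.60-fold (log2 change -0.67, SE 0.12, limma adjusted p = 0.00884) and passed in 17 of 18 alternatives. Within slide rows 1 and 2 the log2 change was -0.80 and -0.61 (adjusted p = 0.0473 and 0.32).

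Socs2, best known as a brake on growth hormone signalling, rose at both probes. At A_55_P1992838 the log2 level was -2.74, -2.82 and -2.68 in control and -1.16, -1.90 and -1.90 in PRF cells. PRF replicate 1 was the highest by far. The rise was 2.13-fold (log2 change 1.09, SE 0.20, limma adjusted p = 0.00977), the largest of the 14 probes, and only 8.44% of tested probes changed more in either direction. Within slide rows 1 and 2 it was 0.81 and 1.29 on the log2 scale (adjusted p = 0.0458 and 0.215).

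At the other Socs2 probe, A_51_P107362, log2 levels were -1.96, -1.77 and -1.85 in control and -1.06, -1.30 and -1.54 in PRF cells. Groups did not overlap, and the rise was 1.47-fold (log2 change 0.56, SE 0.13, limma adjusted p = 0.022). This call was less secure. It was missed without control replicate 1 (adjusted p = 0.0676), control replicate 3 (0.0627) or PRF replicate 2 (0.0667), without scaling (0.112) and with spike-in scaling (0.0889). With the replicate number as a block the adjusted p was 0.0513, and with slide row as a block it was 0.057.

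Socs3, the inhibitor that binds gp130 and limits interleukin-6 signalling, had log2 levels of 2.85, 2.89 and 2.62 in control and 3.29, 3.25 and 3.09 in PRF cells. All PRF arrays were higher, by a mean of 1.34-fold (log2 change 0.42, SE 0.10, limma adjusted p = 0.0208). The call was missed without control replicate 3 (adjusted p = 0.0502), PRF replicate 1 (0.0656) or PRF replicate 2 (0.0706), with slide row as a block (0.0539), without scaling (log2 change 0.28, adjusted p = 0.201) and with spike-in scaling (0.23, adjusted p = 0.148). Within slide rows 1 and 2 the log2 change was 0.52 and 0.30.

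Cish, whose product restrains STAT5, had log2 levels of -1.57, -1.42 and -1.37 in control and -2.21, -1.83 and -1.57 in PRF cells. Rounded to 2 decimals, PRF replicate 3 equalled control replicate 1. The other PRF arrays were clearly lower. The log2 change of -0.42 (SE 0.16, 95% interval from -0.81 to -0.02) did not pass (limma adjusted p = 0.104). It passed without PRF replicate 3 (adjusted p = 0.0295), without scaling (-0.56, adjusted p = 0.0163) and with spike-in scaling (-0.61, adjusted p = 0.0222).

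**Figure D2:**
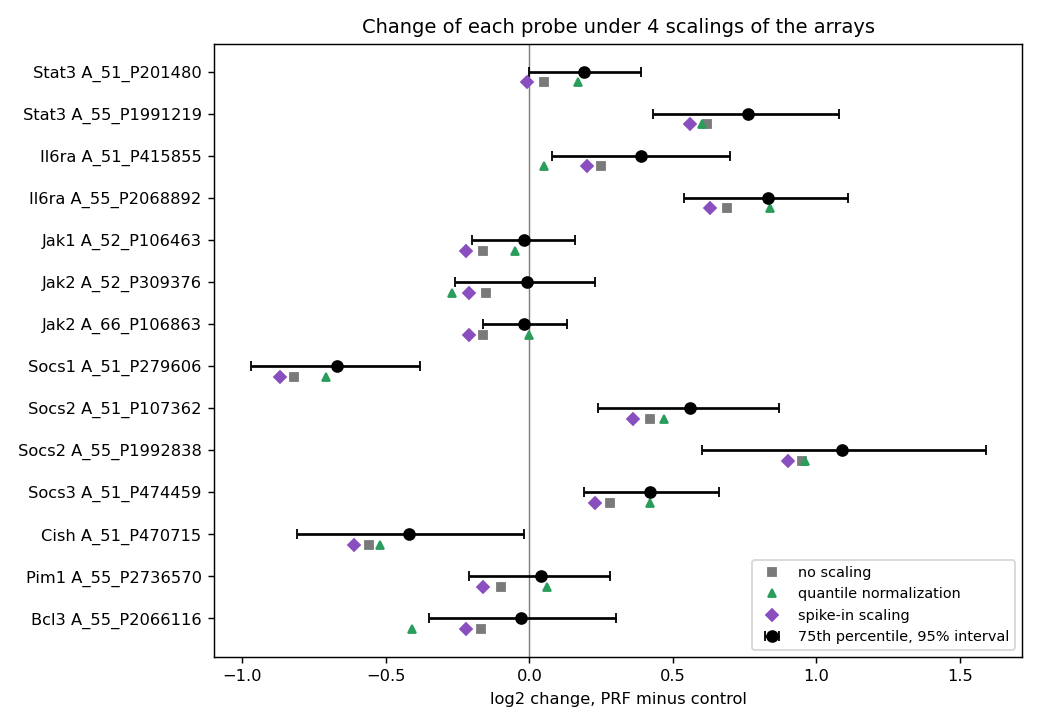
Log2 change (PRF minus control) of each of the 14 probes with its 95% interval (black), and the change under each of 3 other scalings (none, quantile and spike-in). Socs1 lies below 0 and both Socs2 probes, Socs3, Il6ra and Stat3 A_55_P1991219 lie above 0 under each of these scalings.

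The direction of a small change depends on the scaling. Without scaling the median log2 change of all genes was -0.15, and with spike-in scaling -0.20, against -0.01 with the 75th percentile. Of all called probes 59.2% were rises under the main scaling, 49.5% after scaling to the median tested probe, 41.4% after quantile normalization, 38.3% with no scaling and 28.7% with spike-in scaling. Differences between genes within an array are free of any scaling by a constant, and they were taken for the 6 pairs of inhibitor genes and the 4 pairs of probes of 1 gene. These 10 comparisons were chosen after the values were seen.

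Relative to Socs1, Socs2 (probe A_51_P107362) moved from -1.61, -1.43 and -1.54 log2 units in control cells to 0.10, -0.18 and -0.81 in PRF cells. The groups did not overlap, and the balance of the 2 genes shifted 2.35-fold. Relative to Socs1, Socs3 moved from 3.20, 3.23 and 2.92 to 4.45, 4.37 and 3.83 log2 units, a 2.14-fold shift. Cish moved down relative to Socs2 by 0.97 and relative to Socs3 by 0.84 log2 units, again without overlap. Socs3 against Socs2 changed by -0.13 log2 units with overlapping groups (2-sided exact permutation p = 0.4), and Cish against Socs1 by 0.26 without overlap (0.44 within slide row 1). Socs2 probe A_55_P1992838 gained 0.54 log2 units on probe A_51_P107362 without overlap (0.21 and 0.82 within slide rows 1 and 2), while the probes of Il6ra changed by -0.43 against each other with overlapping groups (2-sided exact permutation p = 0.3). In each of the 5 inhibitor pairs without overlap the 2-sided exact permutation p was 0.1, the smallest possible with 3 against 3 arrays, and 0.143 after adjustment over the 10 comparisons. For Socs2 or Socs3 against Socs1 or Cish this outcome was fixed in advance. Each of these genes was already separated between groups, in opposite directions. The lack of overlap and the p-value of those pairs therefore add no separate support.

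**Figure D3:**
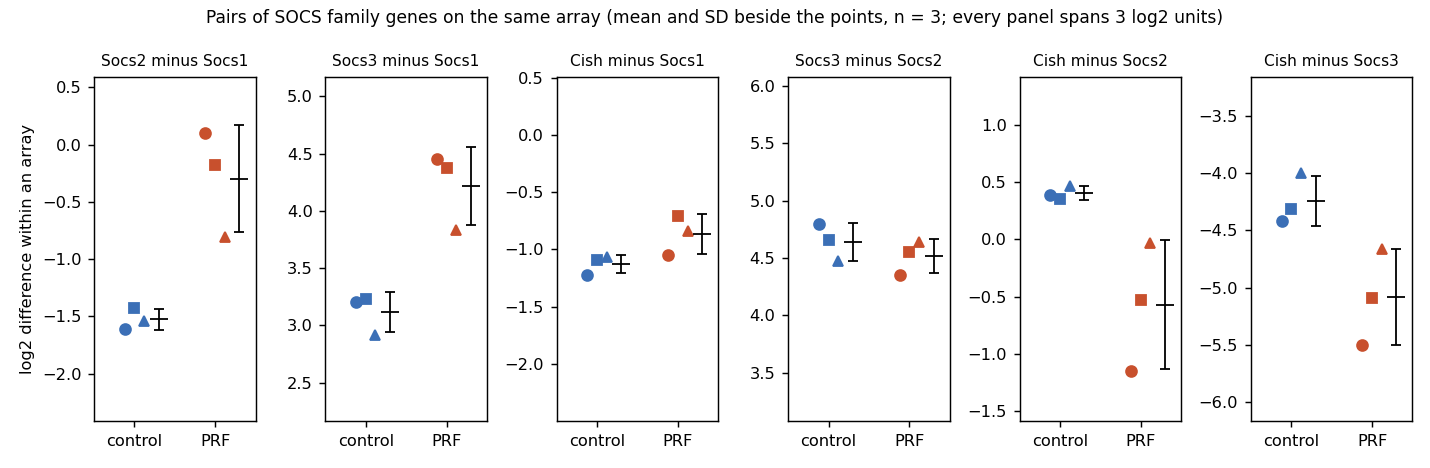
Difference in log2 level between 2 genes of the SOCS family on the same array, for 3 control arrays (blue) and 3 PRF arrays (red), with the mean and SD beside the points. Socs2 and Socs3 move up against Socs1 and Cish, and Socs3 against Socs2 overlaps between groups.

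The response also varied between the PRF arrays in a shared order. At 7 of the 9 probes whose groups did not overlap, PRF replicate 3 was the PRF array nearest to the controls, and at the other 2 it was PRF replicate 2. The same holds across the array, where PRF replicate 3 was nearest at 60.9% of the 17484 probes that had a value on every array and whose groups did not overlap. The order is therefore not particular to these genes.

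RefSeq sequences before the annotated start (build GRCm38.p6) were at hand for 9 of the 10 genes, as 10 windows of 250 bases, and not for Socs2. The classical STAT motif, TTCNNNGAA, which reads the same on both strands, was found in 1 of these 10 windows, that of Socs3, and in 7.02% of all 32851 promoter windows. The variant with 4 bases between TTC and GAA was in none (5.85% of all windows), nor was the AP-1 motif TGANTCA (6.75%), the heat shock element core GAANNTTC (6.69%) or, on either strand, the classical NF-kB motif (0.14%). The core of the interferon response element, GAAA repeated after 2 bases, searched on both strands after the sequences were seen, was found only in the Socs1 window and in 2.98% of all windows. The Socs1 and Socs3 stretches are shown because they hold the only matches among these windows. The Il6ra window is shown because that gene had the lowest adjusted p, and it holds none of the motifs. Whether any motif bears on a change after PRF was not tested. Capitals mark the STAT motif in Socs3 and, in Socs1, 2 matches that overlap each other. The matches are letters in a window, and binding was not measured.
Socs3 (chr11:117969501-117969530, minus strand, 30 bases): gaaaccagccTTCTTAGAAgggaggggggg
Socs1 (chr16:10785537-10785786, minus strand, 250 bases): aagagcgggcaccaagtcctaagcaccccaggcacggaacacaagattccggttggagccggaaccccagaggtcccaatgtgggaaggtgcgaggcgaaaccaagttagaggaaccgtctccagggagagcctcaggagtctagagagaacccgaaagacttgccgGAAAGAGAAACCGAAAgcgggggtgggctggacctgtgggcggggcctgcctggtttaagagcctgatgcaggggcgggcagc
Il6ra (chr3:89913197-89913446, minus strand, 250 bases): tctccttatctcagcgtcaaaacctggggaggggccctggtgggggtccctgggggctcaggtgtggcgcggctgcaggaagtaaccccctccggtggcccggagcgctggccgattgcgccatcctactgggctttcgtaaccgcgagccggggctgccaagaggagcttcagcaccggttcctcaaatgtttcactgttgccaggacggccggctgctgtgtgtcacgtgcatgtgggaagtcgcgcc
The Socs3 match begins 154 bases before the annotated start, and the Socs1 matches begin 83 and 77 bases before it.

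Neither of the other targets passed the test. Pim1, a kinase that promotes survival and growth, had log2 levels of 1.80, 1.78 and 1.96 in control and 2.06, 1.85 and 1.75 in PRF cells. The groups overlap, and the log2 change of 0.04 had a 95% interval from -0.21 to 0.28 (limma adjusted p = 0.811). Its sign turned without scaling and with spike-in scaling (-0.10 and -0.16). Bcl3 had log2 levels of -4.70, -4.41 and -4.69 in control and -4.40, -4.81 and -4.67 in PRF cells. The groups overlap, and its log2 change of -0.03 had a 95% interval from -0.35 to 0.30 (limma adjusted p = 0.894). The change was -0.41 with quantile normalization, -0.22 with spike-in scaling and 0.07 with normexp, and none of these passed. The raw signals of Bcl3, 19.4 to 30.1 units, were the lowest of the 14 probes.

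The rest of the pathway was described with 6 lists, which hold 87 gene names in all besides the 10. Lnk and Sh2b3 among them name the same gene, and only Sh2b3 had probes. A gene was represented by its tested probe with the highest mean signal. Of 77 tested genes 21 rose and 6 fell, 35.1%, where 29.8% of all 15069 tested genes passed (16.3% upward and 13.5% downward). The median log2 change was 0.10, against -0.01 over all genes, and nothing particular to the lists is read from these values. The same shares over all genes stand beside the count of each list below.

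Among ligands and receptors of the gp130 family 4 of 12 tested genes rose and 1 fell, against 16.3% and 13.5% of all genes. The median log2 change of the list was 0.22. With the filter for signal above background on all 6 arrays, which leaves Osm out, 4 genes of the list were called. Osm, the cytokine oncostatin M, passed the background test on 0 of 3 control arrays and on 3 of 3 PRF arrays. It rose at least 13.9-fold, to a mean log2 level of -1.97 ± 0.39 (SD, n = 3) in PRF cells. It entered the test only through the PRF arrays, so no p-value is given for its rise, although it stands in the count of the list. The bound sets each control array at its weakest signal well above background, or at the probe's own signal where that is higher. Lif, a ligand that acts on astrocytes and neurons, rose 3.18-fold, Il11 1.75-fold and Cntf, ciliary neurotrophic factor, 1.67-fold. With normexp, whose offset of 50 units by its construction shrinks ratios of dim probes, the log2 change of Lif was 0.78 in place of 1.67, and that of Osm 1.79 in place of 5.73, less than the bound for Osm. Both still passed. Ctf1, which encodes cardiotrophin 1, fell 1.36-fold (adjusted p = 0.013). Il6, with mean log2 levels of -4.69 ± 0.18 against -4.21 ± 0.35 (SD, n = 3), missed the threshold (limma adjusted p = 0.101) but passed without PRF replicate 2 (0.041) and with normexp (0.00895). Osmr, which encodes the oncostatin M receptor, and Ctf2 had no tested probe.

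Among the other JAK and STAT genes 0 of 5 tested genes rose and 2 fell, against 16.3% and 13.5% of all genes. Stat5a, a STAT activated by prolactin and growth hormone, fell by 0.36 on the log2 scale (SE 0.07, limma adjusted p = 0.0106), and Stat2, a factor of the interferon response, by 0.33 (SE 0.08, adjusted p = 0.0204). Stat2 missed the threshold without any 1 control array (adjusted p up to 0.0635), and 1 of the 2 tested probes of each gene passed. Jak3, Stat4 and Stat6 had no tested probe.

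Of 17 tested genes for other inhibitors of the pathway 2 rose and 0 fell, against 16.3% and 13.5% of all genes. The rises were those of Socs4 by 0.49 (SE 0.08, limma adjusted p = 0.00491) and Socs5 by 0.51 (SE 0.15, adjusted p = 0.0429) on the log2 scale. Socs4 rose at both tested probes, and its call ended only without scaling and in the fits within a row. Socs5 lost its call when control replicate 2, control replicate 3, PRF replicate 1 or PRF replicate 2 was left out (adjusted p up to 0.118), and also without scaling and with spike-in scaling. At their probes with the highest signal, the PTPN phosphatase and PIAS genes of the list did not pass, but 2 of 4 tested probes of Pias1 passed downward and 1 of 3 of Pias2 upward. The count of called genes in this list was 5 with normexp or spike-in scaling, 1 without scaling, 4 without control replicate 1, and 1 without control replicate 2, control replicate 3, PRF replicate 1 or PRF replicate 2.

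In the PIM list, of PIM kinases and proteins they act on, 1 of 10 genes rose and 0 fell, against 16.3% and 13.5% of all genes. With normexp 3 genes of the list were called, and 2 with spike-in scaling. Cdkn1a, the cell cycle inhibitor p21, rose 1.33-fold (limma adjusted p = 0.02), a call lost when control replicate 2, control replicate 3, PRF replicate 2 or PRF replicate 3 was left out (adjusted p up to 0.0642), without scaling and with spike-in scaling. Pim3 had log2 levels of 1.21, 1.18 and 1.25 in control and 1.34, 1.78 and 1.40 in PRF cells. PRF arrays were all higher, but the log2 change of 0.29 (SE 0.12) did not pass (adjusted p = 0.122).

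In the list of NF-kB subunits, IkB proteins and Cyld, 4 of 11 tested genes rose and 2 fell, against 16.3% and 13.5% of all genes. BCL3 belongs to the IkB family. Nfkbiz, which like Bcl3 encodes a nuclear IkB protein, had log2 levels of -0.11, -0.11 and -0.21 in control and 1.12, 1.20 and 1.06 in PRF cells. It was 2.42-fold higher at this probe (limma adjusted p = 1.29e-04) and rose at its other probe too. Nfkbia rose by 0.49 and Nfkb1 by 0.31 on the log2 scale. Nfkbid, a further nuclear IkB gene, fell by 0.60 and Nfkbie by 0.38. Only 1 of the 2 tested probes of Nfkbid passed. Rel passed upward with a log2 change of 0.68, but only 1 of 3 control arrays was well above background. Its change was 0.23 with normexp and 0.22 with quantile normalization, which ended the call (adjusted p = 0.233). Nfkbia and Nfkb1 missed the threshold without scaling and with spike-in scaling, and Nfkb1 also without control replicate 2 (adjusted p = 0.0672). Nfkbid lost its call when control replicate 3, PRF replicate 1 or PRF replicate 2 was left out (adjusted p up to 0.0753), and Nfkbie when any array but PRF replicate 3 was (adjusted p up to 0.0696).

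Of 22 tested genes known as STAT3 targets in other settings 10 rose and 1 fell, with a median log2 change of 0.20. Among all tested genes 16.3% passed upward and 13.5% downward. The list was chosen with earlier results of these data known, so its share is not read as a result about STAT3. The other 11 targets did not pass, among them Gfap (log2 change 0.08), Lcn2 (-0.05), Timp1 (-0.08), Ccnd1 (0.01), Hif1a (-0.04) and Fos (0.12). Bcl2l1 did not pass at its probe with the highest signal, but 3 of its 5 tested probes passed upward. Mcl1, a survival protein of the BCL2 family, had log2 levels of 4.55, 4.46 and 4.21 in control and 5.66, 5.59 and 5.32 in PRF cells. The groups were far apart, a 2.17-fold rise (limma adjusted p = 0.00164). Egr1 rose 7.24-fold and Junb 2.78-fold, and both are also immediate early genes that other pathways induce. Cebpb, an acute phase transcription factor, rose 1.64-fold, Gadd45g 1.62-fold and Bcl6, a transcriptional repressor, 1.47-fold. Batf, an AP-1 family factor, passed the background test on 0 of 3 control arrays and rose at least 2.34-fold. It entered the test only through the PRF arrays, as did Hp. With the filter for signal above background on all 6 arrays, which leaves both out, 9 genes of the list were called. Hp, which encodes haptoglobin, was above background on only 1 of 3 control arrays, and its log2 change of 1.31 was 0.85 with quantile normalization and 0.36 with normexp. Batf went from a fitted log2 change of 3.33 to 0.64 with normexp, which is less than its bound. Cebpd rose 1.42-fold (adjusted p = 0.0215), a call lost when PRF replicate 1 or PRF replicate 2 was left out (adjusted p up to 0.0728), without scaling and with spike-in scaling. Myc, a growth-promoting transcription factor, fell by 0.36 on the log2 scale at this probe and passed downward at its other probe too (adjusted p = 0.0164, and 0.061 without PRF replicate 2).

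**Figure D4:**
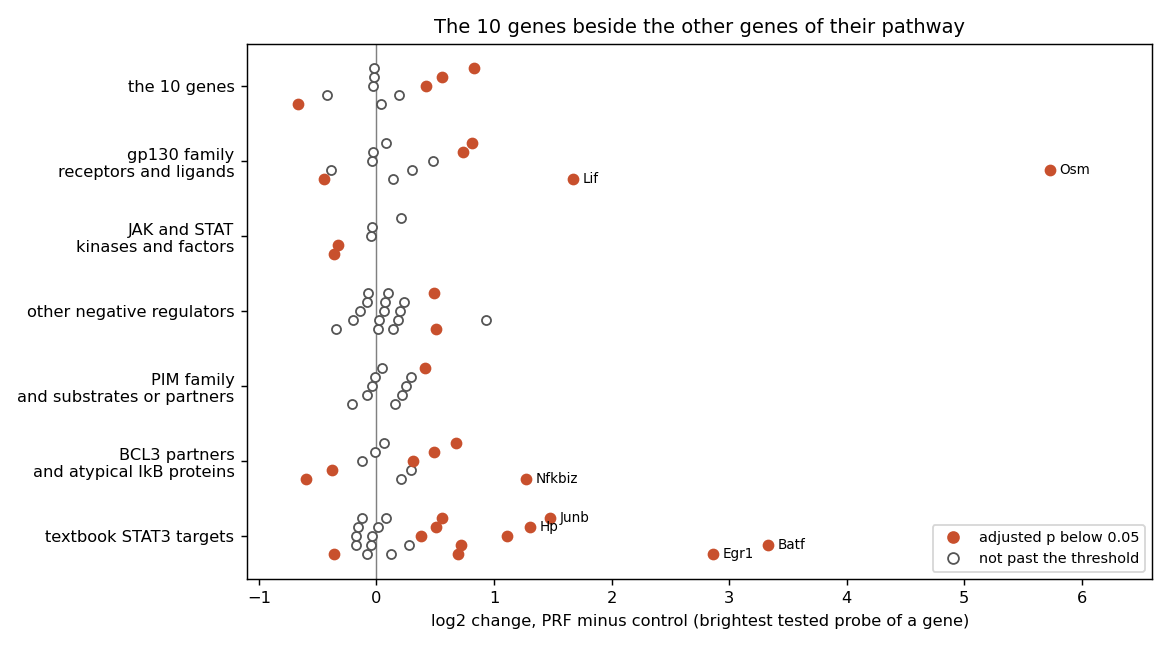
Log2 change (PRF minus control) of the 10 genes and of the tested genes in 6 lists, each at its tested probe with the highest mean signal. Filled points passed the adjusted threshold and open points did not, and Osm, Batf and Egr1 lie farthest to the right. Osm and Batf are drawn at their fitted change, although their control signals give only a bound.

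The genes whose pattern over the 6 arrays was most like that of Stat3, Socs3 and Pim1 were found by the Euclidean distance between mean-centred log2 levels, among 14047 genes that passed the background test on every array. Nearest to Stat3 (probe A_51_P201480) were Cox8b, Cacna1i, Rpl13, Ube2d2a and 2610028H24Rik, at distances of 0.06 to 0.08. Nearest to Socs3 were Nufip2, Klf3, Mars2, Chd1 and 5031434O11Rik, at 0.08 to 0.10, and log2 changes of these 5 ran from 0.40 to 0.47. Changes close to that of Socs3 follow from picking genes by this distance, and shared regulation was not tested. Nearest to Pim1 were Afdn, Abcd4, C8g, Grhpr and Bin1, at 0.08 to 0.11.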

How the data were processed

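For 6 arrays the authors deposited intensity values, the processed signals (background already corrected) and flags that the scanner software wrote for each spot, with no scaling between arrays. That software was Agilent Feature Extraction, version 10.7.3.1 in the headers. The deposited series table held the same intensity values, equal within a relative tolerance of 1e-04 for 99.5% of probes of each array, with column medians of 41.4, 36.5 and 36.3 for control and 50.0, 41.1 and 39.3 for PRF arrays, and thus neither centred nor log transformed. The deposited flags (0 or 1, per the file headers) marked whether a spot was saturated, an outlier or well above background. All arrays lay on 1 slide and were scanned once. Rows 1 and 2 of the slide hold 3 arrays each, and its columns carry the replicate numbers.

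Signals were put on the log2 scale, outlier spots and control spots were left out, spots of a probe were averaged and the 75th percentile of each array was subtracted. Tested probes had to pass the background flag on all 3 arrays of at least 1 group. limma 3.58.1 (lmFit, eBayes; R 4.3.3) was fitted with a group term alone, and adjustment ran over all 34838 tested probes (Benjamini-Hochberg, threshold 0.05), at gene level too. Of these, 12 had a missing array value after outlier spots were removed, none of them among the 14. Probes were named through RefSeq transcripts of GRCm38.p6 (32994 probes, 22911 genes). The array design cites an older build, so no gene coordinates are given, and the promoter windows carry those of the RefSeq table. The number of arrays limits the precision. The fit was tested on simulated data.

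All members, and the markers and 6 pathway lists, were chosen with earlier results of these data known. All members were named, up to 8 called genes of each list, further genes by role (Il6st, Il6, Pim3, Socs5, Myc, Mcl1, Cebpd, and another that is not reported here) and 5 like genes for each of Stat3, Socs3 and Pim1. Alternatives were no scaling, scaling by the median, quantile or spike-in signals, normexp (offset 50), stricter and no filter, blocks for replicate number and slide row, fits within rows, leaving out each array, the series table and averaging a gene's probes. Same-numbered arrays deviated together with correlations of 0.15, -0.08 and 0.05, so the numbers were not taken as pairs.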

Additional observations from a re-analysis of the deposited data

How the results depend on the processing

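The count of called member probes, 6, ran from 4 to 7 with 1 array left out, and that of pathway genes, 27, from 21 to 27. All called probes, 10833, ran from 7220 to 10684. Within slide row 1, which leaves 2 control arrays and 1 PRF array, 3209 probes, 2 member probes and 7 pathway genes were called. Within row 2, with 1 control array and 2 PRF arrays, 162 probes, 0 member probes (limma, with 3 at an unadjusted p below 0.05) and 1 pathway gene were called. These fits rest on fewer arrays, and the lone array is assumed to vary like the others. With the replicate number as a block, 9422 probes were called, 4 member probes upward and 1 downward. Of the other inhibitor genes of the pathway, 2 were called without this block and 4 with it. The block ended the call of the Socs2 probe A_51_P107362 (adjusted p = 0.0513) and no other member call. No named gene or probe that had passed changed its sign under these alternatives. Over 18 alternatives for each of 14 probes, 225 values kept their side of the threshold, 24 missed it and 3, all of Cish, passed newly. With the mean of all tested probes of a gene, Stat3 passed (log2 change 0.47, adjusted p = 0.0119), as did Il6ra, Socs1, Socs2 and Socs3. The lowest raw signals of the 14 probes were those of Bcl3 (19.4 to 30.1 units) and Il6ra probe A_51_P415855 (32.0 to 51.6 units).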
